A study of Homo sapiens with 4 samples.

Results

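The enzymes described here convert steroids in prostate cells. The group was set by name as SRD5A1, SRD5A2, SRD5A3, AKR1C3, HSD17B4, HSD17B6, HSD17B10, HSD17B11, CYP17A1 and STS, and every probe set annotated to 1 of these symbols was taken, bright or dim. A probe set is a group of short array probes that together read 1 transcript. Of the 10 genes, 9 had a probe set in the annotation used here, with 17 probe sets among 39464 tested, and SRD5A3 was not analysed here.

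The cells were LNCap, a human prostate tumor line that depends on androgen and is more often spelled LNCaP. One group of 2 arrays, labelled LNCap ERG, came from cells given a lentivirus for ERG, an ETS transcription factor, together with red fluorescent protein. The other group of 2 arrays, labelled LNCap Vector, came from cells given the lentivirus with the fluorescent protein alone. All 4 arrays share the cell line, the lentiviral system and regular RPMI medium, with RNA taken after the cells had been seeded and left overnight, and the labels name no hormone added or withdrawn. The sources used here do not give the promoter of the lentivirus, and nothing in them says whether each array had its own transduction or culture. The p-values therefore rest on the spread of these 4 arrays alone, which may be technical.

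Most androgen reaches the prostate as testosterone from the testis, and prostate cells also take up weak precursors from the adrenal gland and convert them. The balance between enzymes that make and enzymes that inactivate the hormone sets how much reaches the androgen receptor. STS frees sulfated precursors, CYP17A1 makes the precursor dehydroepiandrosterone from C21 steroids in the adrenal gland and gonads, AKR1C3 reduces the 17-keto group to give testosterone, and the SRD5A enzymes reduce testosterone to the stronger dihydrotestosterone. The members of the HSD17B family studied here mainly oxidise steroids. Depending on the enzyme and the steroid, this can lower the activity of a hormone or, as with HSD17B6 and androstanediol, restore dihydrotestosterone.

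ERG itself was read first. At its brightest probe set, 213541_PM_s_at, the log2 intensities were 3.42 and 3.29 in the arrays labelled LNCap ERG and 3.58 and 3.32 in the LNCap Vector arrays. Over its 4 probe sets the level stayed between 2.65 and 3.58 in all arrays. The groups overlapped at 213541_PM_s_at and 211626_PM_x_at, with log2 fold changes of -0.10 and 0.12. At 222079_PM_at and 241926_PM_s_at both arrays labelled LNCap ERG were the lower ones, with -0.19 and -0.24 (adjusted p = 0.68 and 0.66 from limma). ERG therefore does not check the labels, and it is not known here whether the array reads the transgene. For a background level, 39 genes of other organs were read: their median stood at 3.24 on the log2 intensity scale, and 95% of them lay under 5.51. The value of 5.51 is called the background level below. The 8 measured luminal prostate markers, KLK3, KLK2 and KRT8 among them, read 9.84 to 12.97 in every array. Of the other cell types, no measured basal (2) or leukocyte (4) marker had a mean above 5.51, while COL1A1 of the 5 fibroblast markers and VWF of the 3 endothelial markers did. The summed intensity of the 5 fibroblast markers was 450 to 478 in the arrays labelled LNCap ERG and 357 to 373 in the LNCap Vector arrays. These sums rest mainly on 1 gene, COL1A1, since the highest reading of the 5 was 8.79 on the log2 scale. For the 8 luminal markers the sums were 25436 to 25592 and 26393 to 26595. For the 3 endothelial markers they were 87.4 to 94.4 in the arrays labelled LNCap ERG and 71.6 to 77.8 in the LNCap Vector arrays. The sums of the basal and of the leukocyte markers overlapped between the groups. The part of these markers in the results was not tested. Fewer cells with a transcript and less of it in each cell cannot be told apart in such pooled RNA.

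No steroid-converting enzyme of the group passed the test. At an adjusted p under 0.05 from limma over all 39464 probe sets, 0 of 17 were higher and 0 were lower in the arrays labelled LNCap ERG, where the share called among all probe sets was also 0%. At an unadjusted p under 0.05, 0 were higher against 4.30% of all probe sets, and 1 was lower against 4.41%, a dim probe set of STS. In either direction that is 1 of 17, against 8.70% of all probe sets. The log2 fold changes (arrays labelled LNCap ERG minus LNCap Vector) ran from -0.47 to 0.28 with a median of -0.04, and the median over all probe sets was -0.00137. The 95% interval of the difference stayed inside 2-fold either way at 17 of 17 probe sets (99.4% of all probe sets) and inside 1.5-fold at 14 of 17 (88.1% of all). The exceptions to the narrower limit were 2 probe sets of STS and 1 of CYP17A1.

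The groups did not overlap at 7 of 17 probe sets, 1 higher and 6 lower in the arrays labelled LNCap ERG. These are 5.88% and 35.3% of the group, against 18.9% and 20.1% of all probe sets, or 39.0% in either direction. Among the 7 probe sets of the group, from 5 genes, with both group means above 5.51, 2 were lower without overlap (28.6%) and 0 higher. The shares of all probe sets with both means above it were 25.8% and 21.3%. Of the 6 lower, 3 belong to STS and 2 to CYP17A1, and probe sets of 1 gene are not counted here as separate findings.

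**Figure D1:**
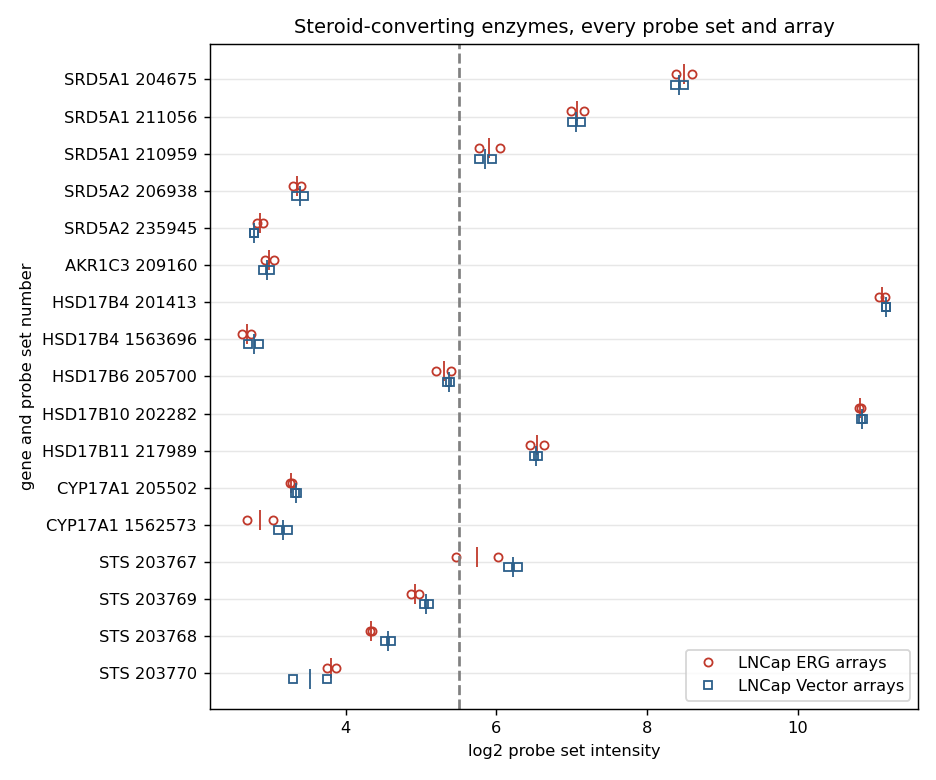
Log2 probe set intensity (x axis) of each of the 17 probe sets (y axis, gene and probe set number). The 2 arrays labelled LNCap ERG are drawn as circles and the 2 LNCap Vector arrays as squares, with a short vertical line at each group's mean and a dashed line at the background level of 5.51; 7 probe sets, of SRD5A1, HSD17B4, HSD17B10, HSD17B11 and STS, have both group means to its right.

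Among the 5-alpha-reductases, SRD5A1 was above background in all 4 arrays at each of its probe sets, and the groups overlapped. SRD5A1 is the type found in skin, liver and many prostate tumors, and SRD5A2 is the main type of the normal prostate. At 204675_PM_at, the brightest of its 3 probe sets, SRD5A1 had log2 intensities of 8.39 and 8.60 in the arrays labelled LNCap ERG and 8.37 and 8.49 in the LNCap Vector arrays. Both LNCap Vector values are below 8.60, and the lower value of each group is nearly the same. This gave a log2 fold change of 0.07 (standard error 0.11, 95% interval -0.21 to 0.34, adjusted p = 0.91 from limma).

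The other SRD5A1 probe sets gave the same picture. At 211056_PM_s_at the log2 intensities were 6.99 and 7.16 against 7.0 and 7.12 in the LNCap Vector arrays, with a log2 fold change of 0.01. At 210959_PM_s_at they were 5.77 and 6.05 against 5.76 and 5.94, with a log2 fold change of 0.05. At each of the 3 probe sets the arrays within a group differed by more than the group means did, and the groups overlapped. Without the second array labelled LNCap ERG all 3 turned below 0, at -0.04, -0.07 and -0.09.

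SRD5A2 was not read above the background level. Its brighter probe set, 206938_PM_at, had log2 intensities of 3.41 and 3.30 in the arrays labelled LNCap ERG and 3.44 and 3.34 in the LNCap Vector arrays, a difference of -0.04 (standard error 0.09, 95% interval -0.27 to 0.20, adjusted p = 0.95). The second, 235945_PM_at, had 2.91 and 2.82 against 2.78 and 2.79, the only probe set of the 17 at which both arrays labelled LNCap ERG were the higher ones. Its log2 fold change was 0.08 (standard error 0.09). All 8 readings of SRD5A2 lie near 3.24, the middle of the genes of other organs, so the intervals bound a difference in signal at background.

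AKR1C3, also called 17-beta-hydroxysteroid dehydrogenase type 5, also lay well under the background level of 5.51, near the median of 3.24. Its single probe set, 209160_PM_at, read 2.93 and 3.05 in the arrays labelled LNCap ERG and 2.90 and 3.0 in the LNCap Vector arrays on the log2 intensity scale. The values of the groups interleave, with a log2 fold change of 0.04 (standard error 0.10, 95% interval -0.20 to 0.28, adjusted p = 0.95).

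Of the oxidising dehydrogenases, HSD17B4 and HSD17B10 were bright and the groups lay close together. HSD17B4, the peroxisomal multifunctional enzyme of fatty acid oxidation that also turns estradiol into estrone, had log2 intensities of 11.08 and 11.16 at 201413_PM_at in the arrays labelled LNCap ERG. Both LNCap Vector arrays read 11.17. The groups did not overlap, by a margin of about 0.01, and the log2 fold change was -0.05 (standard error 0.09, 95% interval -0.27 to 0.17, adjusted p = 0.91). The other HSD17B4 probe set, 1563696_PM_at, was dim, at 2.62 and 2.75 against 2.70 and 2.85, with a log2 fold change of -0.09.

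HSD17B10, a mitochondrial dehydrogenase that acts on isoleucine breakdown products and steroids and is a part of mitochondrial RNase P, had values that lay within 0.05 of each other in all 4 arrays. Its only probe set, 202282_PM_at, had log2 intensities of 10.82 and 10.85 in the arrays labelled LNCap ERG and 10.86 and 10.83 in the LNCap Vector arrays. The groups overlapped, with a log2 fold change of -0.02 (standard error 0.08, 95% interval -0.23 to 0.19, adjusted p = 0.98). The standard error here comes mostly from the spread shared across probe sets, since the arrays of each group had an SD of 0.02.

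HSD17B11, a lipid droplet enzyme that oxidises androstanediol, had log2 intensities of 6.44 and 6.63 in the arrays labelled LNCap ERG and 6.55 and 6.51 in the LNCap Vector arrays at 217989_PM_at. The arrays labelled LNCap ERG lay on either side of both LNCap Vector arrays. The log2 fold change was 0.01 (standard error 0.10, 95% interval -0.25 to 0.26, adjusted p = 0.997), the smallest in size of the 17. Leaving out single arrays moved it from -0.09 to 0.10.

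HSD17B6, which can turn androstanediol back into dihydrotestosterone, lay just under the background level of 5.51. It stood well above 3.24, the median of the genes of other organs. At 205700_PM_at the log2 intensities were 5.20 and 5.40 in the arrays labelled LNCap ERG and 5.35 and 5.39 in the LNCap Vector arrays. The group means of 5.30 ± 0.14 and 5.37 ± 0.03 (SD, n = 2 in each group) are both below 5.51. The log2 fold change was -0.07 (standard error 0.10, 95% interval -0.33 to 0.19, adjusted p = 0.90), and without the first array labelled LNCap ERG it was 0.03.

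CYP17A1, the 17-alpha-hydroxylase and 17,20-lyase that abiraterone blocks, lay well under the background level of 5.51 in all 4 arrays, near the median of 3.24. Its brighter probe set, 205502_PM_at, had log2 intensities of 3.28 and 3.26 in the arrays labelled LNCap ERG and 3.32 and 3.35 in the LNCap Vector arrays, with a log2 fold change of -0.06 (standard error 0.08, 95% interval -0.27 to 0.15, adjusted p = 0.88). The other, 1562573_PM_at, had 3.04 and 2.70 against 3.24 and 3.11, with a log2 fold change of -0.31 (standard error 0.14, 95% interval -0.65 to 0.04, adjusted p = 0.61). Neither probe set had overlapping groups, and at the dimmer one the arrays labelled LNCap ERG differed from each other by more (0.34) than the group means did (0.31). Without the first array labelled LNCap ERG the log2 fold change at 1562573_PM_at was -0.48, and without the second it was -0.14.

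STS, the sulfatase that frees dehydroepiandrosterone and estrone from their sulfates, had the largest difference of the 17 at its brightest probe set, and it did not pass. At its brightest probe set, 203767_PM_s_at, the log2 intensities were 5.47 and 6.03 in the arrays labelled LNCap ERG and 6.28 and 6.15 in the LNCap Vector arrays. Both arrays labelled LNCap ERG were lower than both LNCap Vector arrays, but the first of them stood well below the second. The group means were 5.75 ± 0.39 and 6.22 ± 0.09 (SD, n = 2 in each group). The log2 fold change was -0.47, a 1.38-fold lower level (standard error 0.19, 95% interval -0.95 to 0.01, unadjusted p = 0.053 and adjusted p = 0.58 from limma). Without the first array labelled LNCap ERG it was -0.19, and without the second it was -0.75.

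The other 3 STS probe sets were below the background level of 5.51 in both groups. At 203769_PM_s_at the log2 intensities were 4.87 and 4.97 in the arrays labelled LNCap ERG and 5.04 and 5.10 in the LNCap Vector arrays, and their means differed by -0.15 (standard error 0.09, adjusted p = 0.70). At 203768_PM_s_at they were 4.32 and 4.35 against 4.61 and 4.53, a difference of -0.23 in the means (standard error 0.09, 95% interval -0.45 to -0.01, unadjusted p = 0.041 and adjusted p = 0.56 from limma). With trended and robust moderation the unadjusted p was 0.15 at 203768_PM_s_at and 0.029 at 203767_PM_s_at, the brightest, so the 1 lower call moved from one to the other. These 2 had both arrays labelled LNCap ERG below both LNCap Vector arrays, as at the brightest probe set.

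The fourth, 203770_PM_s_at, went the other way. It had log2 intensities of 3.75 and 3.87 in the arrays labelled LNCap ERG and 3.75 and 3.31 in the LNCap Vector arrays, a difference of 0.28 in the means (standard error 0.16, adjusted p = 0.68). It was the dimmest of the 4, and its LNCap Vector arrays differed from each other by 0.45. Without the first LNCap Vector array its log2 fold change was 0.51, and without the second it was 0.06. Averaged over the 4 STS probe sets, the log2 fold change was -0.14 (adjusted p = 0.72 from limma over genes). All 4 are of a kind (_s_at) whose probes may match more than 1 transcript.

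**Figure D2:**
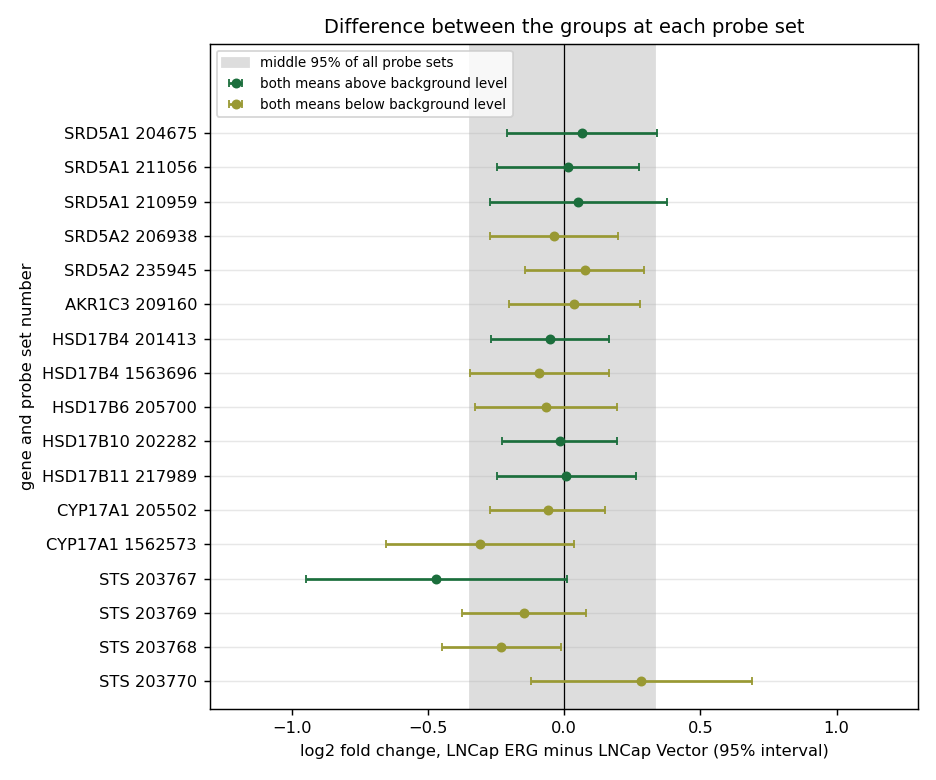
Log2 fold change, arrays labelled LNCap ERG minus LNCap Vector (x axis), at each of the 17 probe sets (y axis), with 95% intervals from limma. Green marks probe sets with both group means above 5.51, olive those with both below; the grey band holds the middle 95% of all 39464 probe sets, from -0.34 to 0.33, and only STS 203767 at -0.47 lies outside it.

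**Figure D3:**
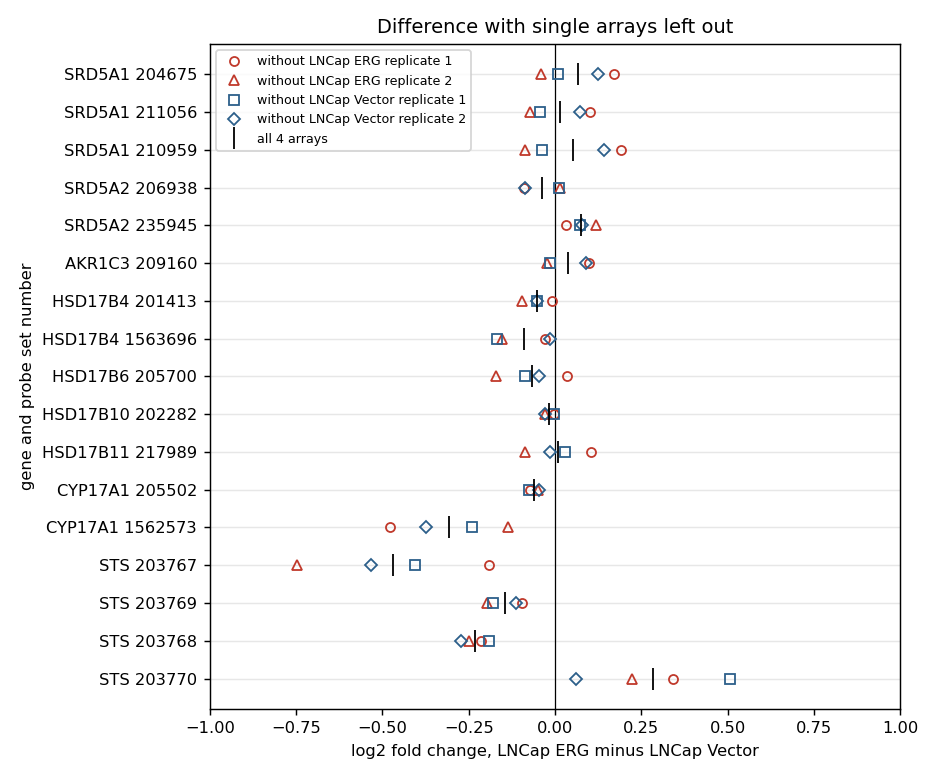
Log2 fold change (x axis) at each probe set (y axis) with all 4 arrays (vertical line) and with each array left out in turn (symbols). The 3 SRD5A1 probe sets, SRD5A2 206938, AKR1C3, HSD17B6 and HSD17B11 have symbols on both sides of 0, while STS 203767 runs from -0.75 to -0.19 and stays below 0.

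ERG and other ETS factors bind DNA at sequences built on GGAA, preferably in a longer form such as CCGGAAGT. The arrays give no binding data, so the bases before the starts of the genes are shown only for the reader to see what these regions hold. The RefSeq promoter table of GRCh38.p14 had 15 windows for 9 of the 10 genes, HSD17B6 aside, and the 250 bases before each start were searched on both strands. GGAA was in all 15 windows and in 92.7% of all 35116 windows of that length. CGGAAG, which holds GGAA, was in 4 of the 15 windows, from HSD17B10, HSD17B11 and STS, and in 16.5% of all windows. CCGGAAGT, which holds both, was in 0 of the 15 and in 3.42% of all. The matches are printed 5′ to 3′ on the strand of the gene with the match in capitals, which reads CTTCCG where CGGAAG lies on the opposite strand. The 2 windows of HSD17B10 overlap and share 1 match.
HSD17B11, minus strand, chr4:87391211-87391240: agcccagcccagCGGAAGgaacggtttcgg
HSD17B10, minus strand, chrX:53434404-53434433: tcgcatccgcccCTTCCGccgcttcgcctc
STS, plus strand, chrX:7252374-7252403: cctacctgctacCTTCCGgggaaccaagcc
The match in HSD17B11 starts 40 bases before its gene start, and the match in STS starts 87 bases before 1 of the 5 starts listed for STS. At their brightest probe sets these 3 genes had log2 fold changes of 0.01 (HSD17B11), -0.02 (HSD17B10) and -0.47 (STS).

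The enzymes around the group were counted from a list of 51 further genes of steroid conversion, of which 47 had 96 probe sets. At an adjusted p under 0.05 from limma 0 of 96 were called in either direction, beside 0% of all probe sets. At an unadjusted p under 0.05, 10 were higher (10.4%, against 4.30% of all probe sets) and 0 lower (against 4.41%). The 10 belong to only 5 genes, CYP3A5, CYP3A7, HSD17B14, HSD17B7 and AKR1C2. The median log2 fold change over the 96 was 0.03. The list was drawn up with earlier results of these data known, so these shares are not a test of it.

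CYP3A5, a cytochrome P450 that hydroxylates testosterone at the 6-beta position, had the largest difference of the list. At 205765_PM_at its log2 intensities were 6.56 and 6.58 in the arrays labelled LNCap ERG and 5.65 and 5.66 in the LNCap Vector arrays. The arrays of each group were almost level, and the groups stood far apart. The difference of the means was 0.92 on the log2 scale, a 1.89-fold higher level (standard error 0.08, 95% interval 0.71 to 1.12, unadjusted p = 6.1e-05 and adjusted p = 0.17 from limma). At its brightest probe set, 214234_PM_s_at, the log2 fold change was 0.77 (adjusted p = 0.33), at 214235_PM_at 0.82 (adjusted p = 0.44), and at the dim 243015_PM_at 0.11. With trended and robust moderation 205765_PM_at and 214234_PM_s_at passed, at adjusted p-values of 0.018 and 0.0497. CYP3A7, a close relative whose probes may share targets with CYP3A5, had log2 fold changes of 0.70 and 0.30 at its 2 probe sets, both below 5.51 in both groups.

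HSD17B14, which oxidises estradiol and related steroids, had log2 intensities of 5.52 and 5.28 in the arrays labelled LNCap ERG and 4.78 and 4.78 in the LNCap Vector arrays at 228713_PM_s_at. All 4 values lie around or under the background level. The log2 fold change was 0.62 (standard error 0.11, adjusted p = 0.41), and its other 3 probe sets had 0.52, 0.44 and 0.32. HSD17B7, which acts in cholesterol synthesis and on estrone, had 0.25 (adjusted p = 0.54), and AKR1C2, which inactivates dihydrotestosterone, had 0.27 (adjusted p = 0.55) at its brightest probe set, 209699_PM_x_at. The other 2 AKR1C2 probe sets had 0.03 and -0.14, and the mean of the 3 had 0.05 (unadjusted p = 0.52), all with means below 5.51.

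The sublists of cholesterol entry, CYP17A1 partners, sulfate handling, corticosteroid and estrogen arms and carriers held no probe set at an unadjusted p under 0.05. At their brightest probe sets, the cholesterol carriers STARD3 and STAR had log2 fold changes of -0.06 and 0.06. CYB5R3 and CYB5A, which pass electrons in the cytochrome b5 system that aids the lyase step of CYP17A1, had 0.06 and 0.03. SUMF2, a relative of the factor that activates sulfatases, had 0.11, and SULT1E1, the estrogen sulfotransferase, had 0.06. HSD11B2, which inactivates cortisol, had 0.20, and CYP11B1, the last step of cortisol synthesis, had -0.18. With single arrays labelled LNCap ERG left out, HSD11B2 ran from 0.04 to 0.36 and CYP11B1 from -0.31 to -0.05. The carriers SLCO2B1 and SLCO1B3 had -0.16 and -0.08, and DHRS9, a retinol and androstanediol dehydrogenase of the sublist of AKR1C2, had 0.18. Their adjusted p-values from limma were 0.70 to 0.97. At these probe sets STARD3, STAR, SULT1E1, CYP11B1, SLCO2B1, SLCO1B3 and DHRS9 had both group means under the background level of 5.51.

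**Figure D4:**
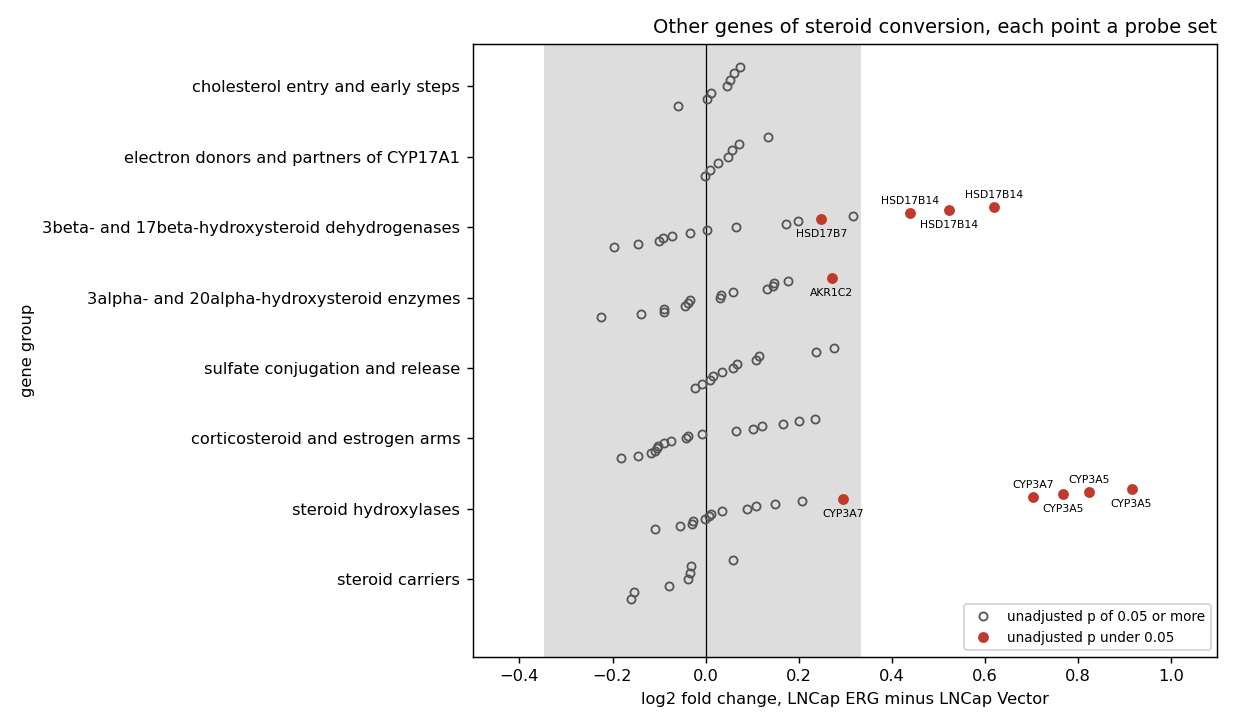
Log2 fold change, arrays labelled LNCap ERG minus LNCap Vector (x axis), of the 96 probe sets of the other steroid conversion genes by sublist (y axis; the vertical place within a sublist only spreads the points). Filled red points have an unadjusted p under 0.05, and the grey band holds the middle 95% of all probe sets; 3 of the 4 CYP3A5 points lie between 0.77 and 0.92, and none of the 96 passed the adjusted threshold.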

How the data were processed

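The deposited values are probe set intensities on a linear scale, judged from their medians of 14.0 to 14.4 and maximum of 15344. The authors analysed the scanned images with dChip and normalized the data with RMAexpress, with annotation in Multiexperiment Viewer. Their versions are not named in these sources. Values were taken to log2. Of 51965 probe sets, 39466 name 1 gene in the platform annotation, 838 several and 11661 none, and 2 with a missing value were left out, which left 39464 probe sets of 19583 genes. Entrez identifiers of 39413 were found in the RefSeq gene table.

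Each probe set was fitted in limma 3.58.1 (lmFit, then eBayes; R 4.3.3; 2 residual and 3.50 prior degrees of freedom), with Benjamini-Hochberg adjustment over all 39464. The fit was tested on simulated arrays whose spread was drawn alike for dim and bright probe sets. That test therefore cannot show whether a fit without trend suits these data, and its outcome is not given here. Promoters were searched and plots drawn in Python 3.11.15 with pandas 2.3.3 and matplotlib 3.10.9.

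The members and gene lists were chosen with earlier results of these data known. Each member is named at every probe set, and of each sublist the 2 genes with the smallest p at their brightest probe set. Other settings tried were leaving out dim probe sets, moderation with trend and robust, the brightest or the mean probe set of a gene, plain probe sets, quantile normalization again, centring on 22 housekeeping genes, an offset of 16, the methods' t-test, the replicate block and 1 array at a time left out. Arrays have no read depth, and their number limits the precision.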

Additional observations from a re-analysis of the deposited data

How the results depend on the processing

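None of the 17 member probe sets passed the adjusted threshold under any of the 14 alternatives that gave them a value, with any 1 array left out included (the lone array is then assumed to vary like the other group). Of the 17, 10 kept their sign throughout. SRD5A2 206938_PM_at reached 0.019 with the mean of the gene's probe sets. With single arrays left out SRD5A1 ran from -0.040 to 0.17, -0.072 to 0.10 and -0.087 to 0.19, SRD5A2 206938_PM_at from -0.089 to 0.014, AKR1C3 from -0.023 to 0.098, HSD17B6 from -0.17 to 0.034 and HSD17B11 from -0.087 to 0.10. Without a change of sign, SRD5A2 235945_PM_at ran from 0.031 to 0.12, HSD17B4 from -0.094 to -0.0098 (201413_PM_at) and -0.17 to -0.014, HSD17B10 from -0.030 to -0.0030 and STS 203769_PM_s_at from -0.20 to -0.095. The count of members lower at an unadjusted p under 0.05, 1 in the main analysis, was 0 with the brightest probe set, the mean and plain probe sets, where 9, 9 and 11 were tested and STS 203768_PM_s_at was not tested on its own, 0 with quantile normalization again, and 0 to 1 with single arrays left out, where the count higher was also 0 to 1.

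Of the other steroid genes, 2 probe sets passed with trended and robust moderation. The count higher at an unadjusted p under 0.05 from limma was 10 of 96, against 1695 of 39464 over all probe sets. It was 5 of 47 with the brightest probe set, against 1098 of 19583 over all. With the mean it was 4 of 47, against 992 of 19583, and with plain probe sets 3 of 54, against 1037 of 25100. The count lower was 1 without dim probe sets and with the offset, 2 with the methods' t-test, and 0 to 3 with single arrays left out. DHRS9 was -0.028 with the mean of its probe sets. The unadjusted p of AKR1C2 was 0.084 with trended and robust moderation. With single arrays left out DHRS9 ran from 0.063 to 0.29, STARD3 from -0.10 to -0.016, STAR from -0.070 to 0.19, CYB5A from -0.028 to 0.083, SUMF2 from -0.016 to 0.23, SULT1E1 from -0.027 to 0.14, SLCO2B1 from -0.40 to 0.078 and SLCO1B3 from -0.22 to 0.057.

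Over all probe sets, 88 passed with trended and robust moderation, 2 without dim probe sets, 2 with the brightest and 14 with the mean probe set, 2 with plain probe sets and 5 with the offset. Without adjustment, 1098 were higher and 804 lower of 19583 with the brightest probe set, 992 and 826 of 19583 with the mean, 1037 and 1034 of 25100 with plain probe sets, and 987 to 1726 and 1101 to 2019 with single arrays left out. With the replicate block 0 passed, as without it, while 1640 (higher) and 1733 (lower) had an unadjusted p under 0.05; the unadjusted p was then 0.058 at STS 203768_PM_s_at, 0.040 at CYP17A1 1562573_PM_at and 0.067 at AKR1C2. The replicate numbers of the labels are not stated to pair the arrays, and the deviations of same-numbered arrays correlated at 0.073 over all probe sets and 0.14 over those above the background level.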

Other observations

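HSD17B1, chosen after its values were seen, reduces estrone to estradiol and had 2 probe sets above the background level that went opposite ways. At 228595_PM_at the log2 intensities were 8.06 and 8.0 in the arrays labelled LNCap ERG and 7.78 and 7.89 in the LNCap Vector arrays, with a log2 fold change of 0.20 (unadjusted p = 0.078 from limma). At 205829_PM_at they were 6.73 and 6.76 against 6.95 and 6.93, with a log2 fold change of -0.20 (unadjusted p = 0.061 from limma). Neither group overlapped the other at either probe set.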
